A study of Homo sapiens with 18 samples.

Results

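The 44 protein-coding genes of the human collagen family, chosen by a symbol made of COL, a number, A and a number, were followed across 18 RNA-seq libraries that carry 3 line labels. They are 44 of the 20263 genes in the deposited count table. The labels MHCC-97H (a liver cancer line), MDA-MB-231 (a breast cancer line) and HCT-116 (a colorectal cancer line) each cover 3 libraries of cells given H3B-8800 at 20 nM and 3 of cells given DMSO, the solvent. Treatment lasted 24 h in medium with 10% fetal bovine serum, and the genotype label of every library was WT. H3B-8800 is a small molecule that modulates SF3B1, a core subunit of the splicing machinery that recognises the branch point, and the series was deposited with exon skipping of the kinase gene SLK and with glycolysis as its subject. The labels name no separate cultures behind the 3 libraries of a group, and p-values therefore reflect only how far those libraries differ, which may be technical. Total counts ran between 28232315 and 41488278 per library, and levels are given as CPM, the count of a gene relative to the library total after TMM scaling, which corrects for differences in composition between libraries.

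Collagens are secreted or membrane-bound proteins made of 3 polypeptide chains wound into a triple helix along Gly-X-Y repeats. Each type is built from 1 or more chains, each from its own gene, so a heterotrimer needs the products of several genes. Types I, III, V and XI form or nucleate fibrils, type IV forms the sheet of basement membranes, type VI forms beaded filaments, type VII anchors epithelia to the stroma, and types XIII, XVII and XXV span the membrane. Fibroblasts are the main makers of type I collagen in tissues, while epithelial cells make type IV, VII and XVII chains. Nascent chains are hydroxylated and glycosylated in the endoplasmic reticulum, folded with the help of chaperones, exported in large carriers and then trimmed and crosslinked outside the cell.

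The libraries did not all carry the markers of the line their label names. Under the MHCC-97H label the hepatocyte genes ALB, APOA1, APOA2, TTR, AFP and SERPINA1 had 0 counts in all 6 libraries, and the 8 listed liver genes together reached 4.74 to 6.09 CPM, below the 41.2 to 57.8 CPM under MDA-MB-231 and the 47.7 to 70.8 CPM under HCT-116. Under the MDA-MB-231 label 5 of the 6 listed intestinal genes were present, summing to 1528 to 1563 CPM, against 1540 to 1642 CPM under HCT-116 and 0 counts under MHCC-97H. The 4 genes listed for mesenchymal-like breast cells were present under every label, with sums of 2231 to 2428 CPM under MHCC-97H, 1919 to 2128 CPM under MDA-MB-231 and 1966 to 2196 CPM under HCT-116, and so did not set MDA-MB-231 apart. Between the DMSO libraries of MDA-MB-231 and HCT-116, 5 of 14234 genes differed by edgeR at an adjusted p below 0.05, and values under these 2 labels are given side by side. The listed fibroblast genes, of which 4 of 8 had counts under each label, summed to 4.01 to 4.82 CPM under MHCC-97H, 22.7 to 30.9 CPM under MDA-MB-231 and 28.5 to 36.9 CPM under HCT-116. A mean of at least 1 CPM was reached by 2 of them under MHCC-97H, 1 under MDA-MB-231 and 2 under HCT-116. Of the 8, POSTN and PDPN had 0 counts in all 18 libraries, while PDGFRB, LUM and DCN had counts under every label. In such bulk libraries, fewer cells of a type and less RNA per cell cannot be told apart.

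Collagen genes split by label. Of the 44 genes, 30 passed the filter on low counts, and 24 averaged at least 1 CPM in some group. These 24 genes are described below with their values. Under MHCC-97H, 20 genes reached that level, against 12 under MDA-MB-231 and 12 under HCT-116. Among them, 12 reached it under MHCC-97H and under neither of the other labels (COL1A1, COL4A1, COL4A3, COL4A4, COL4A6, COL5A1, COL5A3, COL7A1, COL12A1, COL13A1, COL15A1 and COL25A1). Another 4 reached it under the other labels but not under MHCC-97H (COL5A2, COL6A3, COL17A1 and COL24A1), and 8 reached it under all 3 (COL4A2, COL4A5, COL6A1, COL6A2, COL9A3, COL16A1, COL18A1 and COL27A1).

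**Figure D1:**
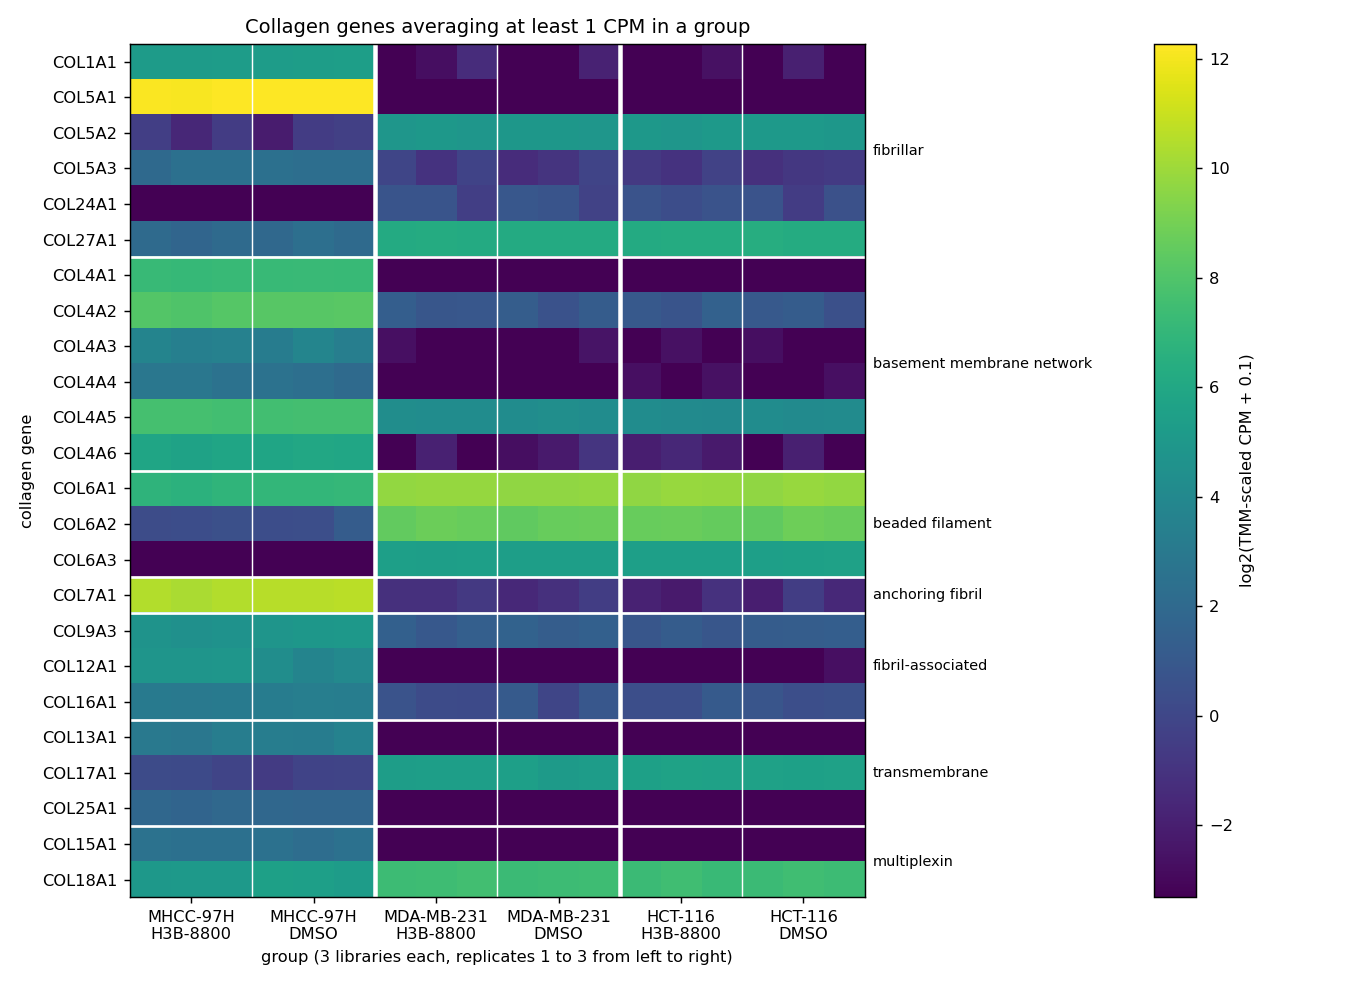
Levels of the 24 collagen genes that averaged at least 1 CPM in some group, as log2(TMM CPM + 0.1), with genes down the page by structural class and the 18 libraries across it by label and treatment. COL5A1 and COL7A1 stand out in the 6 MHCC-97H libraries, and COL6A1, COL6A2 and COL18A1 in the 12 libraries of the other labels.

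Collagen genes together took 6590 to 7567 CPM in the MHCC-97H libraries, with a median of 7298, against 1559 to 1708 CPM (median 1631) under MDA-MB-231 and 1584 to 1793 CPM (median 1656) under HCT-116. The MHCC-97H range lay wholly above the other ranges. One gene made up most of each total. COL5A1 held 65.0% to 66.7% of collagen counts under MHCC-97H, and COL7A1 a further 19.2% to 20.9%. COL6A1 held 51.3% to 53.2% under MDA-MB-231 and 50.9% to 53.4% under HCT-116, where COL6A2 came next with 22.5% to 25.6% and 22.5% to 25.8%, against 1.58% to 1.78% for COL6A1 under MHCC-97H.

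Levels of different genes were set against each other per kilobase of exon. Under MHCC-97H the order of mean CPM per kilobase was COL5A1 (424), COL7A1 (132), COL6A1 (22.8), COL4A5 (16.5), COL4A2 (14.9) and COL4A1 (9.85), and the ranges of COL4A5 and COL4A2 over the 6 libraries overlapped. Under MDA-MB-231 it was COL6A1 (160), COL6A2 (73.2), COL18A1 (19.9), COL17A1 (5.78), COL27A1 (5.35) and COL5A2 (4.06), with overlapping ranges for COL17A1 and COL27A1. The same 6 genes led in the same order under HCT-116, at 164, 75.3, 19.6, 6.85, 5.55 and 4.27 CPM per kilobase.

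The difference between labels was tested in the DMSO libraries, 3 of each label, with edgeR's quasi-likelihood test and Benjamini-Hochberg adjustment over 14234 genes. MHCC-97H over MDA-MB-231 called 82.7% of all genes tested (39.5% higher and 43.2% lower), and 27 of the 30 collagen genes (90.0%), 18 of them higher and 9 lower under MHCC-97H. MHCC-97H over HCT-116 called 82.5% of all genes (39.5% higher and 43.0% lower) and 28 of 30 collagen genes (93.3%), 18 higher and 10 lower. The share of collagen genes called was thus near that of all genes. With genes at 0 counts set at their bound, the median log2 fold change of the 24 described genes was 5.38 against MDA-MB-231 and 5.54 against HCT-116, beside medians of −0.06 over the 12984 genes and −0.05 over the 12970 genes that reached 1 CPM in either of the 2 groups compared. Bounds stood in for 9 and 7 of the 24 genes and were not used in the medians over all genes. Of the 24, 16 were above 0 and 8 below in both comparisons, which share the MHCC-97H libraries. The rule of 1 CPM had admitted 12 of the 24 through MHCC-97H only and 4 through the other labels only. For these genes the rule largely set the direction, so the medians and this split describe the genes and test nothing.

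Among fibrillar collagens, COL5A1 dominated the MHCC-97H libraries. COL5A1 (GRCh38 chromosome 9, 134641774 to 134844843, plus strand) encodes the α1 chain of type V collagen, which nucleates type I fibrils and limits their width. It had 4702, 4392 and 4850 CPM in the H3B-8800 libraries labelled MHCC-97H and 4796, 4790 and 4952 CPM in their DMSO libraries. In the 12 libraries of the other 2 labels it had 0 counts, which allows up to 0.0068 CPM over the 12 by counting error alone, and its level under MHCC-97H was at least 697780-fold higher than that floor (adjusted p = 1.8e-12 by edgeR in each DMSO comparison).

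Of the partner chains of COL5A1, COL5A2 ran the other way, and COL5A3 ran the same way at a far lower level. COL5A2, the α2 chain with which COL5A1 forms the common heterotrimer, had 0.132 to 0.680 CPM under MHCC-97H (median 0.583), against 29.2 to 32.1 (median 30.1) under MDA-MB-231 and 28.9 to 33.5 (median 32.1) under HCT-116, and the ranges did not overlap. In the DMSO libraries it was lower under MHCC-97H by a log2 fold change of −6.03 ± 0.31 (SE of the fit) against MDA-MB-231 (edgeR adjusted p = 3.4e-11) and −6.13 ± 0.31 against HCT-116 (adjusted p = 2.8e-11). COL5A3, another type V chain, had 3.93 to 5.38 CPM under MHCC-97H, 0.299 to 0.870 CPM under MDA-MB-231 and 0.344 to 0.753 CPM under HCT-116 (log2 fold change 3.29 ± 0.36, edgeR adjusted p = 3.2e-07, against MDA-MB-231). Per kilobase, the MHCC-97H medians were 0.753 for COL5A3 and 0.0782 for COL5A2, beside the mean of 424 for COL5A1.

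Of the 2 chains of type I collagen, the main collagen of bone, skin and tendon, only 1 was counted under MHCC-97H, and both were at or near 0 under the other labels. COL1A1 had 37.6 to 42.2 CPM (median 38.7) under MHCC-97H, against 0 to 0.290 CPM under MDA-MB-231 and 0 to 0.155 CPM under HCT-116 (edgeR adjusted p = 3.7e-09 and 3.4e-09). COL1A2, the α2(I) chain, had 0 counts in the 6 MHCC-97H libraries, which allows up to 0.0154 CPM, and 0 to 0.299 and 0 to 0.271 CPM under MDA-MB-231 and HCT-116. COL3A1, the chain of the type III homotrimer, stayed at or below 1.06 CPM in all 18 libraries and was not called between labels.

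COL27A1, a fibrillar chain known from cartilage, and COL24A1, known from bone, were lower under MHCC-97H. COL27A1 had 3.30 to 5.08 CPM (median 4.05) there, against 73.1 to 76.9 (median 74.7) under MDA-MB-231 and 73.8 to 82.8 (median 77.3) under HCT-116, with a log2 fold change of −4.13 ± 0.10 against MDA-MB-231 (edgeR adjusted p = 8e-15). COL24A1 had 0 counts under MHCC-97H and 0.639 to 1.80 CPM under MDA-MB-231 and 0.594 to 1.52 CPM under HCT-116, at least 83.9-fold lower under MHCC-97H by its floor of 0.0154 CPM. The group difference exceeded the spread between libraries for both genes.

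The 6 genes of type IV collagen lie in 3 head-to-head pairs whose starts face each other across a short shared stretch. The α1 and α2 chains form the common basement membrane trimer, α3, α4 and α5 form the trimer of the kidney glomerulus and lung, and α5 with α6 forms that of skin and smooth muscle. The stretches between the starts are shown because the members of each pair share them. All 6 genes were higher under MHCC-97H than under the other labels, by different amounts. Whether the sequences bear on the levels was not tested. They are from RefSeq on GRCh38.p14, plus strand, in lower case, with capitals for matches on either strand to the GC box GGGCGG, to the motif CCAAT or to the core promoter motif TATAAA. No matches overlapped, and the last motif had none in the 3 stretches.
COL4A1 and COL4A2, chr13:110307158-110307283, the whole 126 bases between the starts: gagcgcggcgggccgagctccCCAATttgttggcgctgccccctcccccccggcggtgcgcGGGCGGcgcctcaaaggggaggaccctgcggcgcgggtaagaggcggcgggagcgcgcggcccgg
COL4A4 and COL4A3, chr2:227164489-227164623, the whole 135 bases: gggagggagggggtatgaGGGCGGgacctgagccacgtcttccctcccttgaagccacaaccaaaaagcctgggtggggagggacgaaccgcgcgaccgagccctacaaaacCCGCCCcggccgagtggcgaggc
COL4A6 and COL4A5, chrX:108439588-108439837, the 250 of 379 bases nearest COL4A5: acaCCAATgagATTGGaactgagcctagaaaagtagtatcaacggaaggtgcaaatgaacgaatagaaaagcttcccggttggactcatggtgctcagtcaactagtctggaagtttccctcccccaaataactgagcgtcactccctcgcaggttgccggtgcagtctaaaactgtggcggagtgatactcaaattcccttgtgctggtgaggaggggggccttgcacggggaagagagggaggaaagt

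The GC content of the 3 stretches was 80.2%, 68.1% and 51.2% in that order. GGGCGG was present once between COL4A1 and COL4A2 and in 2 places between COL4A4 and COL4A3, and was found in 34.6% and 35.5% of the same number of bases before the start in 35116 RefSeq promoters. CCAAT was present once in the COL4A1 and COL4A2 stretch (21.1% of promoters) and in 2 places in the COL4A6 and COL4A5 stretch (32.0% of promoters at 250 bases).

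COL4A1 and COL4A2, which share the stretch richest in G and C, were both high under MHCC-97H. COL4A1 had 144, 141 and 144 CPM in the H3B-8800 libraries labelled MHCC-97H, 147, 151 and 145 CPM in the DMSO libraries, and 0 counts in the 12 libraries of the other labels, a difference of at least 21331-fold over the floor of those 12. COL4A2 had 255 to 309 CPM (median 293) under MHCC-97H, 1.43 to 2.47 CPM (median 2.00) under MDA-MB-231 and 1.30 to 2.77 CPM (median 1.92) under HCT-116, with a log2 fold change of 7.25 ± 0.23 against MDA-MB-231 (edgeR adjusted p = 1.2e-13) and 7.38 ± 0.23 against HCT-116 (adjusted p = 1.1e-13). So COL4A2 counts stayed above 0 in every library in which its partner had none. Per kilobase, COL4A1 was 0.613 to 0.721 times COL4A2 under MHCC-97H, with a median of 0.658. An antisense gene, COL4A2-AS1, shares 81 exon bases with COL4A2, and the strand setting of the counting is not given in the sources used here.

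The pair COL4A3 and COL4A4 was detected mainly under MHCC-97H. COL4A3 had 9.31 to 13.5 CPM (median 11.0) there, against at most 0.0793 CPM under MDA-MB-231 and 0.0598 CPM under HCT-116. COL4A4 had 4.17 to 7.16 CPM (median 5.82), against 0 counts under MDA-MB-231 and at most 0.0603 CPM under HCT-116. Per kilobase, COL4A3 stood 1.63 to 2.98 times above COL4A4 in the MHCC-97H libraries.

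In the X-linked pair, COL4A5 was present under every label, as was COL4A2 at lower levels under MDA-MB-231 and HCT-116. COL4A5 had 188 to 202 CPM (median 194) under MHCC-97H, 18.8 to 20.5 (median 19.0) under MDA-MB-231 and 16.7 to 19.3 (median 18.0) under HCT-116. Its log2 fold change was 3.31 ± 0.06 against MDA-MB-231 (edgeR adjusted p = 2.2e-16) and 3.39 ± 0.06 against HCT-116 (adjusted p = 1.8e-16). COL4A6 had 50.1 to 64.7 CPM (median 57.9) under MHCC-97H, at most 0.423 CPM under MDA-MB-231 and at most 0.239 CPM under HCT-116 (edgeR adjusted p = 6.7e-10 and 3.6e-10). Per kilobase, COL4A5 was 2.37 to 3.14 times COL4A6 under MHCC-97H.

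**Figure D2:**
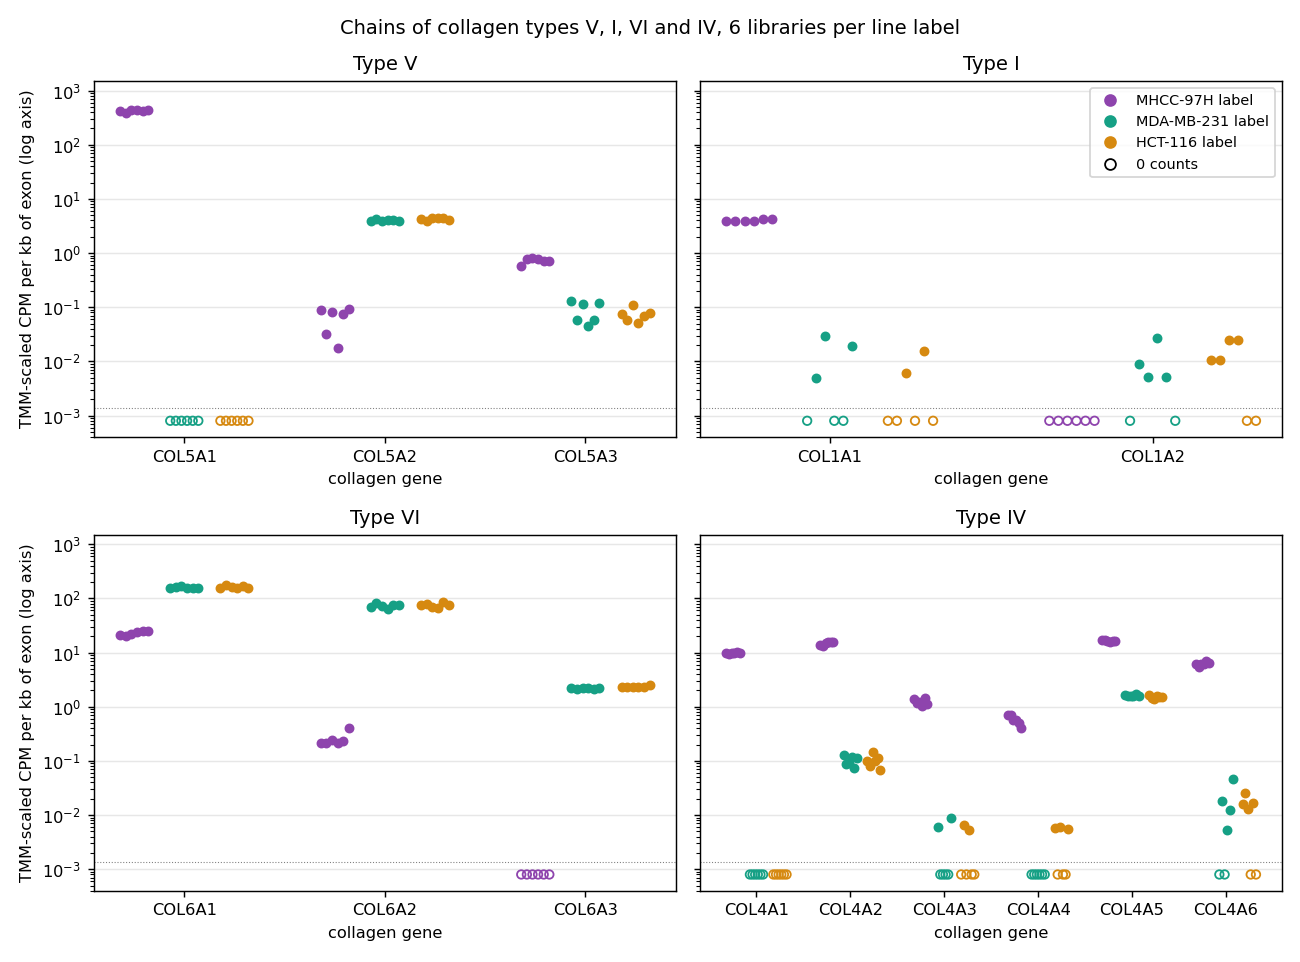
Levels of the chains of types V, I, VI and IV collagen, as TMM CPM per kilobase of exon on a log axis, with the 6 libraries of each label as points and open circles below the dotted line for libraries with 0 counts. COL5A1 and COL4A1 are open circles under MDA-MB-231 and HCT-116 while COL5A2 and COL4A2 are not, and COL6A3 and COL1A2 are open circles under MHCC-97H.

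The beaded filament collagen, type VI, was the leading collagen of the other labels and was uneven under MHCC-97H. It needs 1 α1, 1 α2 and 1 larger chain such as α3. COL6A1 (chromosome 21, 45981737 to 46005050) had 106 to 135 CPM (median 123) under MHCC-97H, 824 to 908 (median 846) under MDA-MB-231 and 831 to 948 (median 863) under HCT-116. COL6A2, its neighbour (chromosome 21, 46098097 to 46132849), had 1.13 to 2.19 CPM (median 1.21) under MHCC-97H, 351 to 437 (median 397) under MDA-MB-231 and 356 to 462 (median 408) under HCT-116. The ranges did not overlap for either gene.

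COL6A1 was lower under MHCC-97H by a log2 fold change of −2.67 ± 0.06 against MDA-MB-231 (edgeR adjusted p = 1.5e-15), while COL6A2 was lower by −7.96 ± 0.19 (adjusted p = 4e-15). The ratio of COL6A1 to COL6A2 per kilobase was 61.9 to 111 under MHCC-97H, with a median of 95.6, against 2.03 to 2.37 under MDA-MB-231 and 2.01 to 2.36 under HCT-116. COL6A3 (chromosome 2, 237324003 to 237414375, minus strand) had 0 counts in the 6 MHCC-97H libraries, 42.1 to 44.1 CPM under MDA-MB-231 and 45.0 to 49.4 CPM under HCT-116, at least 2887-fold lower under MHCC-97H by its floor. Where COL6A3 was present, COL6A2 exceeded it per kilobase by a ratio of 29.8 to 37.5 under MDA-MB-231 and 28.8 to 36.9 under HCT-116. COL6A5 and COL6A6, alternatives to the α3 chain, had 0 counts in all 18 libraries.

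COL7A1 (chromosome 3, 48564073 to 48595267, minus strand), the chain of the anchoring fibril that fastens epidermis to dermis, was the collagen with the second highest level under MHCC-97H. It had 1424, 1268 and 1435 CPM in the H3B-8800 libraries and 1519, 1542 and 1585 CPM in the DMSO libraries of that label, against 0.249 to 0.608 CPM under MDA-MB-231 and 0.120 to 0.620 CPM under HCT-116. The log2 fold change was 11.91 ± 0.28 against MDA-MB-231 (edgeR adjusted p = 6.1e-15) and 12.15 ± 0.28 against HCT-116 (adjusted p = 5.6e-15). COL17A1, the hemidesmosomal transmembrane collagen of the same epithelial junction, ran opposite, with 0.563 to 1.06 CPM (median 0.805) under MHCC-97H, 36.4 to 45.0 (median 41.4) under MDA-MB-231 and 46.9 to 50.6 (median 48.3) under HCT-116. Its log2 fold change was −5.80 ± 0.13 against MDA-MB-231 (adjusted p = 1.9e-15).

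The other transmembrane chains followed COL7A1. COL13A1, found at the neuromuscular junction and at cell adhesions, had 7.24 to 12.1 CPM under MHCC-97H and 0 counts in the 12 other libraries. COL25A1, a type II membrane protein of neurons and myotubes, had 3.15 to 3.82 CPM under MHCC-97H and likewise 0 counts elsewhere. Their levels under MHCC-97H were at least 1367-fold and at least 517-fold above the floor of those 12 libraries.

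The 2 multiplexins, basement membrane collagens whose ends release endostatin-like fragments, went in opposite directions. COL15A1 had 4.75 to 5.80 CPM under MHCC-97H and 0 counts in the 12 other libraries, at least 795-fold higher. COL18A1 (chromosome 21, 45405137 to 45513720) had 31.6 to 46.8 CPM (median 37.1) under MHCC-97H, 160 to 186 (median 169) under MDA-MB-231 and 154 to 182 (median 163) under HCT-116, with a log2 fold change of −1.92 ± 0.08 against MDA-MB-231 (edgeR adjusted p = 4.2e-12). COL15A1 was thus counted in no library of the labels where COL18A1 was highest.

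The 3 described fibril-associated collagens, which decorate the surface of fibrils, were all higher under MHCC-97H. COL12A1 (chromosome 6, 75084326 to 75206051, minus strand) had 13.0 to 29.5 CPM (median 23.8) there, 0 counts under MDA-MB-231 and at most 0.0554 CPM under HCT-116. COL9A3, a chain of the type IX heterotrimer of cartilage, had 22.6 to 31.2 CPM (median 26.8) under MHCC-97H, 1.84 to 2.87 under MDA-MB-231 and 1.69 to 2.41 under HCT-116 (log2 fold change 3.50 ± 0.14, edgeR adjusted p = 1.5e-12, against MDA-MB-231). COL16A1 had 7.92 to 10.3 CPM, against 0.857 to 2.02 and 1.24 to 2.08 CPM (2.62 ± 0.26, adjusted p = 1.5e-07).

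The remaining 20 genes were low everywhere. COL3A1, COL8A1, COL8A2, COL9A2, COL11A2 and COL26A1 passed the filter without reaching a group mean of 1 CPM. COL1A2, COL2A1, COL9A1, COL10A1, COL11A1, COL21A1, COL23A1 and COL28A1 did not pass it, with at most 58 counts over the 18 libraries. COL6A5, COL6A6, COL14A1, COL19A1, COL20A1 and COL22A1 had 0 counts in every library. Each of the 3 genes that the label tests did not call against at least 1 other label was among the low ones: COL3A1 and COL26A1 in both comparisons and COL8A2 against MDA-MB-231.

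In the DMSO libraries of MDA-MB-231 over those of HCT-116, 0.0351% of all genes and 0 of 30 collagen genes were called by edgeR, and 0 collagen genes by DESeq2 or limma-voom. A single gene, COL17A1, named after its value was seen, had an edgeR p below 0.05 before adjustment, with a log2 fold change of −0.26 ± 0.09 and an adjusted p of 1. Its 6-library ranges under the labels, 36.4 to 45.0 CPM and 46.9 to 50.6 CPM, did not overlap.

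H3B-8800 moved few collagen genes, and those few under the MHCC-97H label. There edgeR called 27.6% of all genes (12.9% higher and 14.7% lower) and 3 of the 30 collagen genes (10.0%), COL12A1 as higher and COL18A1 and COL6A1 as lower. At an unadjusted p below 0.05 there were 6. The 3 libraries of the H3B-8800 group did not overlap those of the DMSO group for 12 of the 30 genes, where 47.6% of all genes did not overlap. The median log2 fold change was −0.12 over the 20 genes described under this label and −0.08 over the 11955 genes that reached the same level.

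COL18A1 had 31.6, 35.1 and 33.3 CPM in the H3B-8800 libraries, against 46.8, 45.1 and 39.1 CPM in the DMSO libraries labelled MHCC-97H. Every treated library lay below every DMSO library, and the log2 fold change was −0.39 ± 0.08 (edgeR adjusted p = 0.0048). The exons of COL18A1 share 1401 bases with SLC19A1, a folate carrier gene on the opposite strand, and reads of the 2 genes cannot be told apart there without strand. SLC19A1 had 21.7, 20.7 and 21.0 CPM with H3B-8800, against 25.9, 26.3 and 25.0 CPM with DMSO (−0.29 ± 0.12, adjusted p = 0.091).

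COL6A1 had 112, 106 and 118 CPM in the H3B-8800 libraries, against 128, 131 and 135 CPM in the DMSO libraries of MHCC-97H, again with no overlap. Its log2 fold change of −0.23 ± 0.06 was called (edgeR adjusted p = 0.0091), but not with scaling by library totals (−0.09, adjusted p = 0.18) or after correction for GC content and exon length (−0.04, adjusted p = 0.53). Over all genes the median log2 fold change shifted by 0.10 with library totals.

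COL12A1 had 28.1, 27.4 and 29.5 CPM in the H3B-8800 libraries, against 20.3, 13.0 and 16.3 CPM in the DMSO libraries of MHCC-97H. It rose by a log2 fold change of 0.78 ± 0.23 (edgeR adjusted p = 0.036), and the DMSO libraries were farther apart than the treated ones. The call was lost without DMSO replicate 2 (0.63, adjusted p = 0.12) or 3 (0.77, adjusted p = 0.10), without any 1 of the H3B-8800 replicates (0.79, 0.80 and 0.75, adjusted p = 0.088, 0.084 and 0.089), and after correction for GC content and length (0.49, adjusted p = 0.16).

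**Figure D3:**
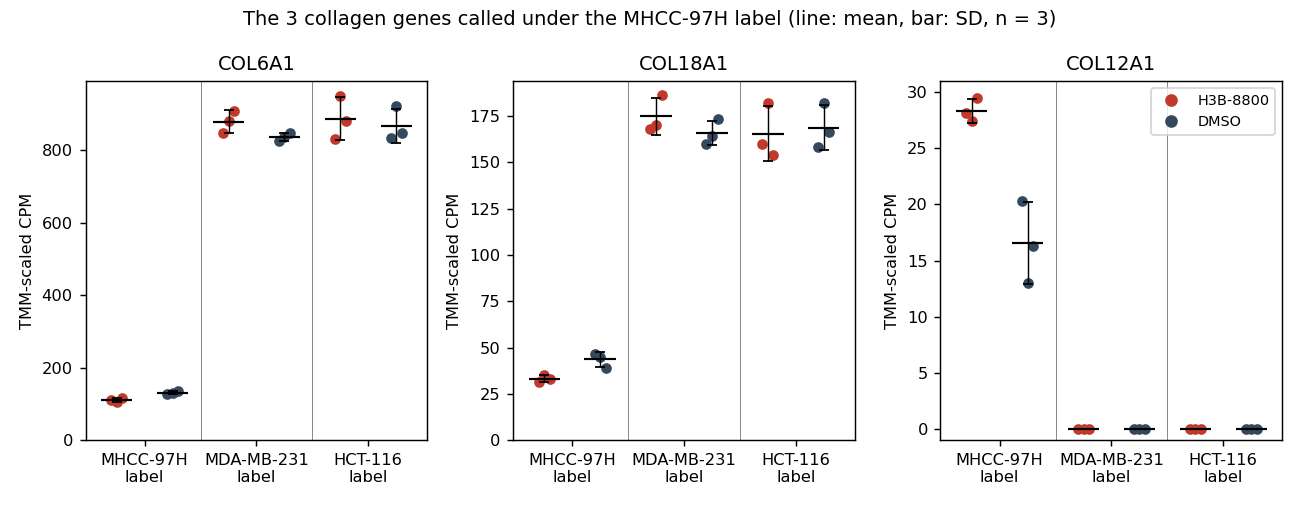
TMM CPM of COL6A1, COL18A1 and COL12A1 in each library, with H3B-8800 left of DMSO under each label and the mean and SD of the 3 libraries beside the points. Under MHCC-97H the points of the 2 treatments are apart for all 3 genes. COL12A1 is at or near 0 under the other labels.

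Log2 fold changes were lower in collagen genes richer in G and C. Across the 20 genes described under MHCC-97H, Spearman's rho between the GC content of the longest transcript and the log2 fold change was −0.80, beside −0.52 across 14223 genes. Both are descriptions over genes that share the same 6 libraries. The called genes had 46.3% GC in COL12A1, 63.5% in COL6A1 and 67.2% in COL18A1. Genes that were not called lay farther out at both ends, with 41.3% in COL25A1 and 67.4% in COL9A3.

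COL5A1 and COL7A1, the leading collagens of the MHCC-97H libraries, were not called by edgeR in the reported fit. COL5A1, with the values given above, had a log2 fold change of −0.06 ± 0.05 (edgeR adjusted p = 0.45), and COL7A1 one of −0.17 ± 0.16 (adjusted p = 0.48). For type IV, COL4A1 had −0.05 ± 0.06 (adjusted p = 0.63), COL4A2 −0.16 ± 0.16 (adjusted p = 0.5) and COL4A5 0.04 ± 0.05 (adjusted p = 0.63). COL4A2 had 272, 255 and 287 CPM with H3B-8800, against 304, 299 and 309 CPM with DMSO, groups that did not overlap although the test did not call them. The same held for COL4A1 and COL7A1. Among the alternatives, COL7A1 was called lower with limma-voom alone (−0.17, adjusted p = 0.037). COL4A5 was called higher by edgeR with library totals alone (0.17, adjusted p = 0.049).

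Of the genes described under this label, COL9A3 came next in order of p. COL26A1, which reached 0.371 CPM at most in these libraries, had an adjusted p of 0.078 by edgeR. COL9A3 had 25.4, 22.6 and 24.8 CPM in the H3B-8800 libraries, against 28.3, 29.9 and 31.2 CPM in the DMSO libraries labelled MHCC-97H (−0.30 ± 0.12, edgeR adjusted p = 0.086). The 2 groups did not overlap. COL9A3 was called lower by DESeq2 (adjusted p = 0.031) and limma-voom (0.01). So it was by edgeR on only the groups compared (0.042) and with the replicate block (0.045). It was not called with library totals or with the GC and length trend removed. COL13A1 had a log2 fold change of −0.34 ± 0.19 (adjusted p = 0.23), and COL4A4, at 7.11, 7.16 and 5.85 CPM with H3B-8800 against 5.80, 5.00 and 4.17 CPM with DMSO, one of 0.43 ± 0.33 (adjusted p = 0.38). Both were called with limma-voom alone (adjusted p = 0.021 and 0.044).

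**Figure D4:**
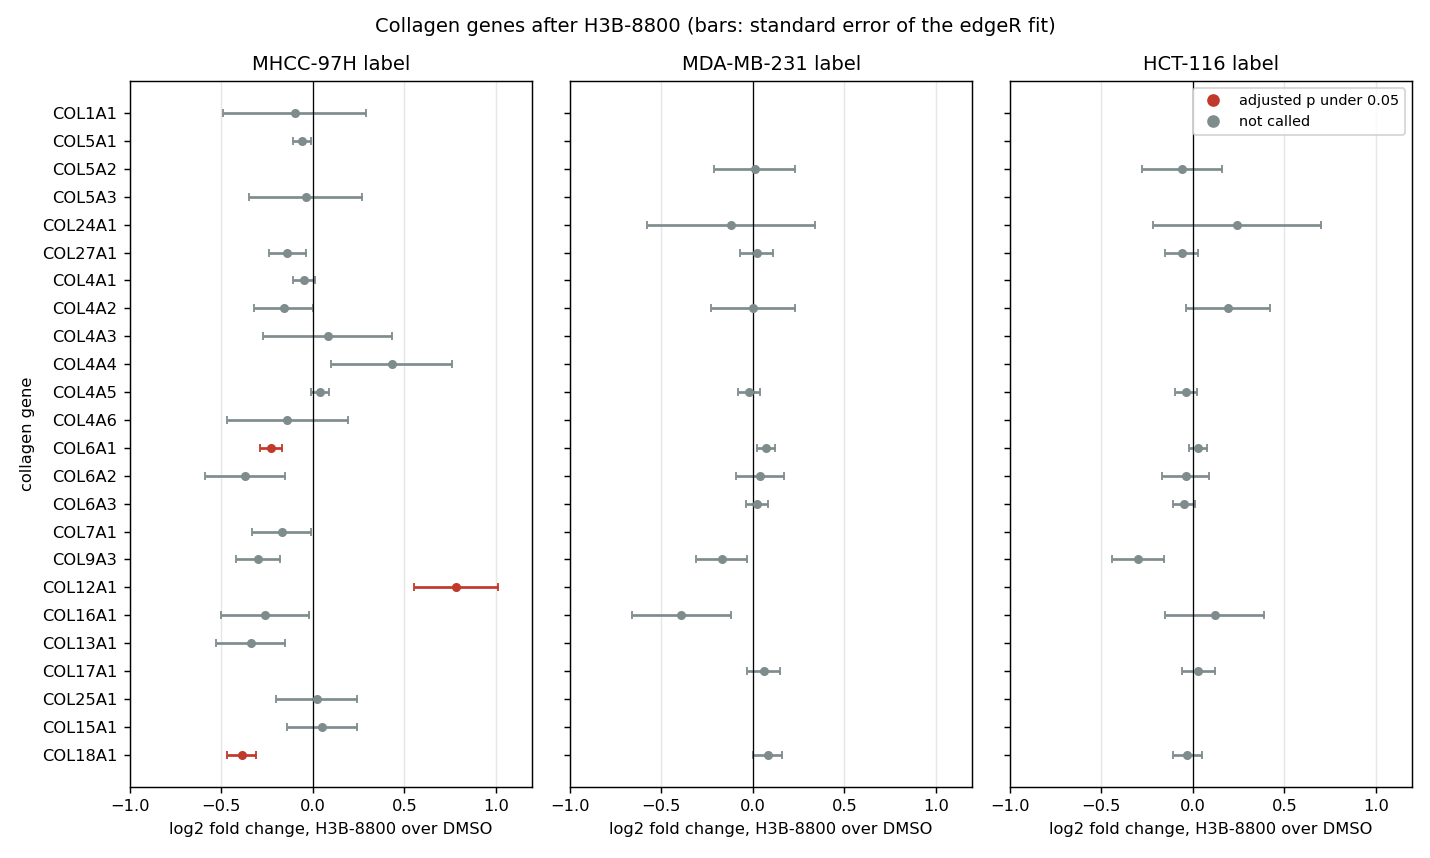
Log2 fold change of H3B-8800 over DMSO with its SE, for the collagen genes that averaged at least 1 CPM under each label, with genes called by edgeR at an adjusted p below 0.05 in red. Called genes appear under MHCC-97H and are COL12A1 above 0 and COL6A1 and COL18A1 below it.

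Under the other labels H3B-8800 called 0.0351% of all genes for MDA-MB-231 and 0.0351% for HCT-116, and 0 of 30 collagen genes for each by edgeR, DESeq2 and limma-voom. No collagen gene had an unadjusted p below 0.05 in either comparison, while 1024 of all genes did under MDA-MB-231 and 655 under HCT-116. COL6A1 had 846, 880 and 908 CPM with H3B-8800 against 824, 836 and 846 CPM with DMSO under MDA-MB-231 (0.07 ± 0.05, edgeR adjusted p = 0.82). Under HCT-116 it had 831, 948 and 880 CPM with H3B-8800 against 832, 920 and 846 CPM with DMSO (0.03 ± 0.05, adjusted p = 1). COL18A1 had log2 fold changes of 0.08 ± 0.08 (adjusted p = 0.87) and −0.03 ± 0.08 (adjusted p = 1) under these labels. Under MDA-MB-231 no collagen gene had groups that did not overlap, where 18.5% of all genes did, and under HCT-116 there was 1, COL9A3 (1.74, 2.18 and 1.69 CPM with H3B-8800 against 2.19, 2.33 and 2.41 CPM with DMSO), beside 7.00% of all genes.

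A test of whether the H3B-8800 effect differed between the 3 labels called 15.4% of all genes and 2 of the 30 collagen genes (6.67%), COL18A1 (edgeR adjusted p = 0.029) and COL6A1 (adjusted p = 0.032). COL12A1, at or near 0 counts under the other labels, was not called. The difference in COL6A1 was not called by edgeR with DESeq2-style size factors (adjusted p = 0.063), library totals (0.32) or the correction for GC content and length (0.55). That in COL18A1 was not called by edgeR with library totals (adjusted p = 0.18) or the same correction (0.08). DESeq2 itself called both COL6A1 (adjusted p = 0.029) and COL18A1 (0.014).

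The genes that make, export and cut collagen were followed in 5 lists, to be read against the 12.9% of all genes called higher and 14.7% called lower for H3B-8800 under MHCC-97H. Of 13 tested modifying enzymes, 0 rose and 5 fell with H3B-8800 under MHCC-97H, with a median log2 fold change of −0.24 beside −0.08 over all genes of the same level. With library totals 0 of the 13 were called in either direction. PLOD1, a lysyl hydroxylase, had 1192 ± 41.5 CPM with H3B-8800 and 1439 ± 45.2 CPM with DMSO (SD, n = 3 each; −0.27 ± 0.06, edgeR adjusted p = 0.0049). COLGALT1, which adds galactose to hydroxylysine, averaged 438 ± 11.8 CPM with H3B-8800 and 535 ± 12.1 CPM with DMSO (adjusted p = 0.006). P3H1, a prolyl 3-hydroxylase, and P4HA2, a prolyl 4-hydroxylase subunit, had log2 fold changes of −0.24 each (adjusted p = 0.014 and 0.015).

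Of the 12 folding and export genes, 2 were called higher and 3 lower, beside 12.9% and 14.7% of all genes. SEC24D, a COPII coat protein needed for procollagen export, had 161 ± 6.74 CPM with H3B-8800 and 117 ± 8.60 CPM with DMSO (0.46 ± 0.09, edgeR adjusted p = 0.0032). FKBP10, a collagen chaperone of the endoplasmic reticulum, had 866 ± 19.7 CPM with H3B-8800 and 1071 ± 47.9 CPM with DMSO (−0.31 ± 0.06, adjusted p = 0.0029). PPIB, the prolyl isomerase that works with P3H1, and KDELR2, which returns chaperones from the Golgi, also fell, by −0.24 and −0.17 (adjusted p = 0.015 each).

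In the processing and crosslinking list 0 of 11 genes rose and 5 fell, beside 12.9% and 14.7% of all genes, and with library totals 1 was higher and 0 lower. Those that fell included BMP1, the C-propeptidase (−0.23, edgeR adjusted p = 0.02), and the lysyl oxidases LOXL1 (−0.26, adjusted p = 0.027) and LOXL2 (−0.25, adjusted p = 0.03). PCOLCE, which enhances BMP1, fell by 0.30 on the log2 scale (adjusted p = 0.04). Of 6 collagenolytic enzymes 1 was called, MMP14, a membrane-bound collagenase, with 58.7 CPM under H3B-8800 and 68.8 CPM under DMSO (−0.23, adjusted p = 0.022).

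Of 9 tested collagen receptors, 2 rose and 1 fell, beside 12.9% and 14.7% of all genes. ITGA1, the integrin α1 subunit that binds type IV collagen, averaged 85.2 ± 0.142 CPM with H3B-8800 and 46.7 ± 6.63 CPM with DMSO under MHCC-97H (0.87 ± 0.17, edgeR adjusted p = 0.0032). ITGA2, the α2 subunit that binds type I collagen, averaged 138 ± 6.34 CPM with H3B-8800 and 63.9 ± 3.18 CPM with DMSO (1.11 ± 0.37, adjusted p = 0.036), and DDR1, a receptor tyrosine kinase for collagen, averaged 79.4 CPM with H3B-8800 and 111 CPM with DMSO (−0.48, adjusted p = 0.049).

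Of the 16 listed genes named by the rule in this comparison, 5 (COLGALT1, FKBP10, ITGA1, PLOD1 and SEC24D) were called whichever library was left out. The other 11 lost their call without at least 1 library, at adjusted p between 0.051 and 0.2. For P3H1, P4HA2 and PPIB this was H3B-8800 replicate 2 or DMSO replicate 3 of MHCC-97H, and for KDELR2 it was DMSO replicate 2 or 3. BMP1 was lost without H3B-8800 or DMSO replicates 2 or 3, LOXL1 without H3B-8800 replicate 1 or 2 or DMSO replicate 2 or 3, and MMP14 without H3B-8800 replicate 1 or 3 or DMSO replicate 2 or 3. LOXL2 was lost without any of the H3B-8800 replicates or DMSO replicate 2 or 3, and ITGA2 and PCOLCE without any 1 of the 6 libraries. DDR1 was lost without 13 of the 18 libraries, 5 of them labelled MHCC-97H. Scaling by library totals ended 12 of the 16 calls, and correction for GC content and length ended 11. SEC24D and ITGA1 were called in both. For H3B-8800 under the other 2 labels, 0 genes of the 5 lists were called by edgeR or limma-voom.

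Between labels in DMSO, 8 modifying enzymes were higher and 2 lower under MHCC-97H than under MDA-MB-231, of 13, where 39.5% of all genes were higher and 43.2% lower. The total called, 10 of 13, was near the 82.7% of all genes. P4HA1, the main catalytic prolyl 4-hydroxylase subunit, averaged 1475 CPM against 224 CPM (2.72, edgeR adjusted p = 4.4e-16), and P4HA2 509 CPM against 93.2 CPM (2.45). The prolyl 3-hydroxylases P3H3 and P3H2 averaged 28.7 CPM against 0.0381 CPM and 82.1 CPM against 2.90 CPM. Of the 12 folding and export genes, 7 were higher and 3 lower: FKBP10 averaged 1071 CPM against 95.9 CPM (3.48, adjusted p = 2.1e-16), while CREB3L1, a transcription factor for collagen and secretory genes, averaged 0.106 CPM against 24.4 CPM (−7.84, adjusted p = 3.4e-11). PPIB was higher, at 540 CPM against 198 CPM (1.45), and MIA3, which loads procollagen into carriers, lower, at 26.6 CPM against 85.8 CPM (−1.69).

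Of the 11 processing genes, 9 were higher and 2 lower under MHCC-97H than under MDA-MB-231, in a comparison that called 82.7% of all genes (39.5% higher and 43.2% lower). PXDN, the peroxidase that crosslinks type IV collagen, averaged 432 CPM under MHCC-97H and had 0 counts under MDA-MB-231, while LOXL1 averaged 6.09 CPM against 127 CPM. TLL1, a protease related to BMP1, averaged 18.0 CPM against 0 counts, and PCOLCE 62.2 CPM against 3.34 CPM (4.22). Collagenolytic enzymes had 2 higher and 4 lower of 6, with MMP1, the interstitial collagenase, at 0.372 CPM against 44.2 CPM (−6.90), MMP2, a gelatinase, at 13.4 CPM against 5.66 CPM (1.24) and MMP14 at 68.8 CPM against 104 CPM (−0.60). The receptor list had 4 higher and 2 lower of 9, and MRC2, an endocytic receptor for cleaved collagen, averaged 122 CPM against 0.977 CPM (6.96). ITGB1, the β1 subunit shared by collagen-binding integrins, averaged 952 CPM against 629 CPM (0.60), and DDR1 111 CPM against 67.1 CPM (0.72, edgeR adjusted p = 0.0011, but 0.17 against HCT-116). The higher level of ITGA1, 46.7 CPM against 36.0 CPM (0.37, adjusted p = 0.047), lost its call when any 1 of 12 libraries was left out. Against HCT-116, which shares the MHCC-97H libraries, the 5 lists had 8, 7, 8, 2 and 3 genes higher and 2, 3, 2, 4 and 2 lower, beside 39.5% and 43.0% of all genes.

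COL17A1 lies tail to tail with SLK, the gene named in the title of the series, on chromosome 10. SLK spans 103967201 to 104029233 on the plus strand and COL17A1 104031286 to 104085957 on the minus strand, with 2052 bases between them. SLK averaged 46.9 ± 2.38 CPM with H3B-8800 and 27.0 ± 4.42 CPM with DMSO under MHCC-97H (SD, n = 3 each; 0.79 ± 0.13, edgeR adjusted p = 0.0016). COL17A1 had 1.06, 1.05 and 0.806 CPM with H3B-8800 against 0.563, 0.772 and 0.803 CPM with DMSO in the same libraries (0.45 ± 0.15, adjusted p = 0.12), so the groups did not overlap but the difference was not called. Among the alternatives it was called by edgeR with library totals alone (0.59, adjusted p = 0.047).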

How the data were processed

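The authors deposited raw counts per Ensembl gene for 18 libraries, with fastp, HISAT2 and GRCh38 named in the submitters' processing notes. Not given in the sources used here were versions, the counting tool and its strand setting. Symbols, gene types, exon lengths and GC content came from GENCODE release 29, which matched 20224 of the 20263 genes. GC content was that of the longest transcript of a gene. Collagen genes, lists and tests were chosen with earlier results of these data known. edgeR 4.0.16 on R 4.3.3 was fitted to all 18 libraries with 1 mean per group of 3 (TMM, filterByExpr by group, robust quasi-likelihood), with Benjamini-Hochberg adjustment over 14234 genes and a threshold of 0.05. The fit was tested on simulated data. Genes averaging at least 1 CPM in a group are described; of each list and H3B-8800 comparison, up to 4 called genes are named in order of adjusted p, and across labels up to 4 by size of the MHCC-97H over MDA-MB-231 change among genes with at least 10 CPM in a group. Floors are 3 counts over the libraries named and, like the depth of 28232315 to 41488278 counts per library, cover counting error only. Alternatives were other size factors, library totals, no filter or a minimum of 50 counts in 3 libraries, DESeq2 1.42.0, limma-voom 3.58.1, only the groups compared, a replicate block, removal of the trend over GC content and length by splines with 5 degrees of freedom, and leaving out each library. Replicate numbers are shared across groups in the labels, and nothing says what a number marks. Promoter sequences were in the RefSeq table for 32 of the 44 genes.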

Additional observations from a re-analysis of the deposited data

Results flagged for a closer look

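By edgeR's interaction test, which called 15.4% of all genes, the H3B-8800 effect differed between the 3 labels for 2 of 30 collagen genes. It also differed for 6 of the 16 listed genes named above for H3B-8800 under MHCC-97H. Those 16 were named because they were called in the same MHCC-97H libraries, so this share describes them and tests nothing. Alternatives of this test are not given for the 6 listed genes. COL18A1 (adjusted p = 0.029) and COL6A1 (adjusted p = 0.032) were lower with H3B-8800 under MHCC-97H and not called under the other labels. Leaving out each of the 18 libraries in turn, COL18A1 was not called in 8 cases (highest adjusted p 0.081), namely without MHCC-97H H3B-8800 replicate 1, 2 or 3, MHCC-97H DMSO replicate 1 or 2, MDA-MB-231 H3B-8800 replicate 3, and MDA-MB-231 DMSO replicate 1 or 2. COL6A1 was not called in 9 cases (highest adjusted p 0.096), without MHCC-97H H3B-8800 replicate 1 or 2, MHCC-97H DMSO replicate 2 or 3, MDA-MB-231 H3B-8800 replicate 2 or 3, MDA-MB-231 DMSO replicate 1 or 2, and HCT-116 DMSO replicate 3. Among listed genes, the effect differed for the modifying enzymes PLOD1 (adjusted p = 0.017), COLGALT1 (0.031) and P4HA2 (0.031), the chaperone FKBP10 (0.033), the export protein SEC24D (0.011) and the receptor subunit ITGA1 (0.015).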

How the results depend on the processing

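Under MHCC-97H, the 3 collagen genes called for H3B-8800 by edgeR became 8 with limma-voom, 1 with the GC and length trend removed, 1 with that trend removed and the replicate block, and 2 to 4 with each library left out. By direction, 1 was higher and 2 lower in the reported fit, against 3 and 1 with library totals and 2 and 6 with limma-voom. The 2 genes whose H3B-8800 effect differed between labels became 1 by edgeR with DESeq2's size factors and 0 with library totals. The count was 0 with the GC and length trend removed, 1 with that trend removed and the block, and 0 to 2 with each library left out. DESeq2 itself called both genes. Calls over all genes moved too. With each library left out they ran from 2141 to 4455 for H3B-8800 under MHCC-97H, beside 3922 in the reported fit. For the difference between labels they ran from 565 to 2784, beside 2197. Shares of all genes called in the other alternatives are not given here. COL18A1 was called under MHCC-97H in every alternative run. The cause of the other changes was not tested. Counts between labels were 27 to 28 in each comparison with MHCC-97H and 0 between MDA-MB-231 and HCT-116. Scaling by totals shifted the all-gene median log2 fold change by −0.28 against MDA-MB-231 and −0.26 against HCT-116.

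Treated and DMSO libraries of a label with the same replicate number correlated in their deviations between −0.05 and 0.19 over all genes tested. Those with different numbers correlated between −0.14 and 0.11. Same-number values were 0.12, 0.07 and 0.02 under MDA-MB-231 and 0.05, 0.19 and 0.03 under HCT-116, all above 0. Nothing says what a number marks, so the numbers were not taken as pairs in the reported fit. Over the 9233 genes at 10 CPM or more the 3 HCT-116 pairs had 0.18, 0.45 and 0.13, and pairs of the other labels −0.04 to 0.17. With the block, 0 collagen genes were called under HCT-116. The replicate block gave 4 called collagen genes under MHCC-97H and 2 differing between labels. A block within labels could not be set against label differences; a block of the number across labels, added after seeing the data, gave 27 and 28. Low counts limit the 14 genes that did not pass the filter.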
